A study of Mus musculus with 6 samples.

Results

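The semaphorin, plexin, neuropilin, ephrin and Eph genes are the families of cell-to-cell guidance ligands and receptors, and 51 of them were described here among the 22180 genes measured. The members are defined by gene symbol: semaphorins of classes 3 to 7, plexins, neuropilins 1 and 2, and the A and B types of Eph receptors and ephrins. Each gene is represented by 1 probe set assigned to that gene only, the one of highest mean over the arrays where there were several. The set comprised 20 semaphorins, 9 plexins, 2 neuropilins, 12 Eph receptors and 8 ephrins. Ephb2 had no probe set of its own and was not analysed here.

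RNA came from cultured mouse embryonic fibroblasts (MEFs), connective tissue cells grown out from embryos, and was hybridised to Affymetrix arrays. There were 3 arrays from Pax7+/+ (wild type) cells and 3 from Pax7-/- (knockout) cells, numbered as biological replicates 1 to 3 in each genotype. Both groups had an F1 background of C57Bl6N and 129Sv, were grown in serum-containing medium without a treatment, and were collected at confluence. Pax7, a DNA-binding protein with a paired domain and a homeodomain that is needed in muscle satellite cells and expressed in neural tube and neural crest, is disrupted in all cells of the knockout by genotype, and the comparison asks what its loss does to expression in these fibroblasts. Embryo age, the number of embryos behind a culture and the deleted part of Pax7 were not stated in the labels, so p-values measure only the spread in these samples. Where knockout and wild type are compared within replicate numbers, that is the spread of the differences within numbers.

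Semaphorins are secreted or membrane-bound ligands that signal through plexins, and most class 3 semaphorins need a neuropilin as co-receptor. Eph receptors are receptor tyrosine kinases whose ligands, the ephrins, are tethered to the surface of neighbouring cells, so that signals run into both cells. Both systems are known for steering axons, neural crest cells and blood vessels, and fibroblasts and other mesenchymal cells use them in cell repulsion, boundary formation and cell spreading.

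The sample labels give the cell type as ESCs while the titles name MEFs, so markers were read first. All 12 fibroblast markers, among them Col1a1, Col1a2, Vim and Thy1, were above background in at least 1 genotype, and 11 of them on all 6 arrays. Of 12 pluripotency markers, 4 were above background (Dppa3, Lin28a, Pou5f1 and Tfcp2l1), while 7, among them Zfp42, Sox2 and Esrrb, were above it on no array. Background is the level below which 95% of 1373 odorant and pheromone receptor genes lay on the same array, at 5.44, 5.34 and 4.65 on wild type arrays 1 to 3 and 5.43, 5.34 and 4.63 on knockout arrays 1 to 3. A gene is called above background in a genotype when its mean exceeds the mean of that genotype's levels. The Pax7 probe set read 6.14, 5.65 and 4.88 in wild type and 6.17, 5.95 and 5.05 in the knockout. It exceeded background on every array and was higher in the knockout at each replicate number, so it did not show the loss of Pax7. Where it lies relative to the deleted part is not given. Replicate 3 differed from replicates 1 and 2 in both genotypes: its arrays had a correlation of 0.992 with each other and of 0.814 to 0.844 with the rest, whose own correlations were 0.988 to 0.990. The interquartile range of the gene signals was 3.02 and 2.98 log2 units on the replicate 3 arrays and 1.61 to 1.69 on the others.

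Most guidance genes gave a mean signal above background in these fibroblasts. In both genotypes 40 of the 51 (78.4%) lay above background, where 53.1% of all genes did. Of the others, 1 (Plxnc1) did so in wild type only, and 10 in neither. All class 3 semaphorins, neuropilins, EphB receptors and ephrins measured were above background in both genotypes. The 10 that were not are Sema4d, Sema4f, Sema4g, Sema6b, Sema6c, Plxnb1, Plxnb3, Epha1, Epha5 and Epha6. By array, 30, 34 and 39 members exceeded background in wild type replicates 1 to 3 and 30, 32 and 44 in the knockout, so the replicate 3 arrays held most in each genotype. Of all genes, 44.9%, 49.1% and 57.6% exceeded it in wild type and 45.5%, 48.2% and 58.1% in the knockout. Only 25 members were above background on all 6 arrays, and 5 were above it on none. The same level was exceeded in both genotypes by 6 of 12 neuronal and 4 of 12 pluripotency markers. In bulk RNA, fewer cells of a type and less RNA per cell cannot be told apart.

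**Figure D1:**
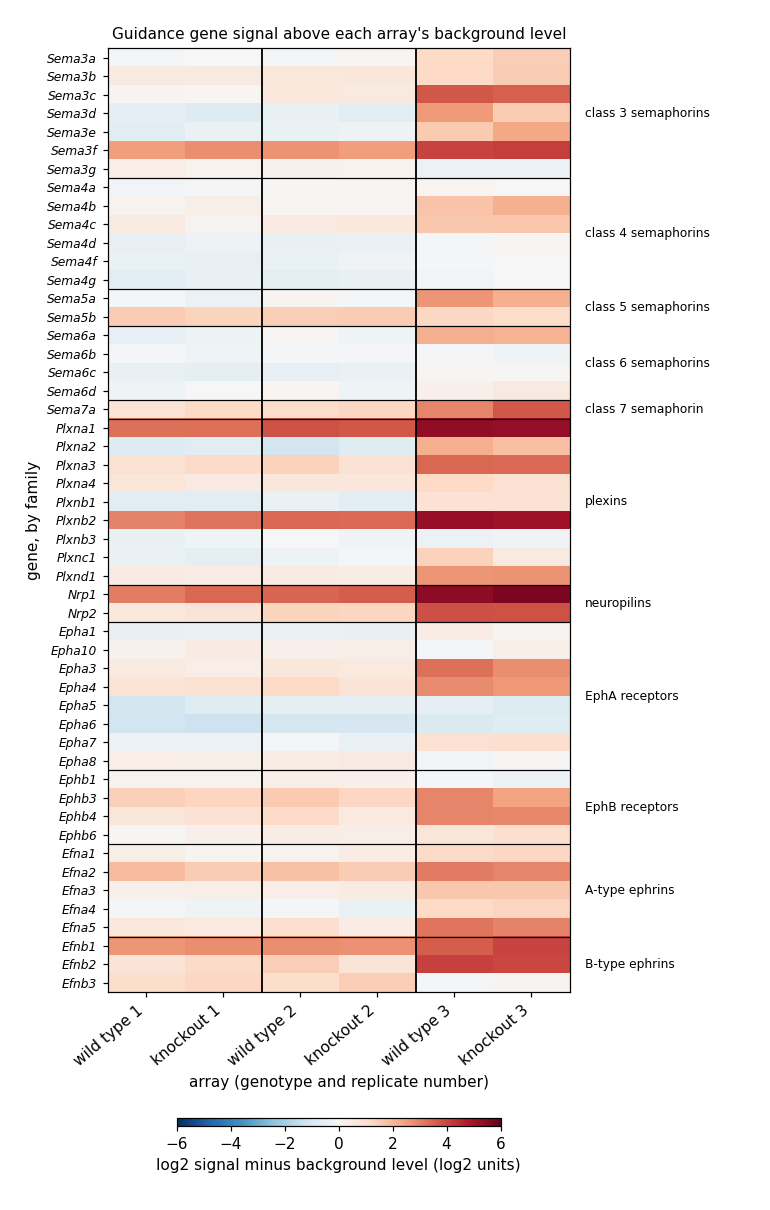
Log2 signal minus the background level of the same array for the 51 guidance genes (rows, by family) on the 6 arrays (columns, by genotype and replicate number); red is above background and blue below. Within a row, neighbouring wild type and knockout columns of 1 replicate number look alike, and the replicate 3 columns stand apart; colours are not comparable between rows, because each row is a different probe set.

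No guidance gene passed the test between the genotypes. Differences are knockout minus wild type in log2 units throughout, and their median over the 51 members was -0.0085, against -0.0018 over all genes. The medians within replicates 1, 2 and 3 were 0.021, -0.021 and -0.0029. Single members ranged from -0.49 for Sema3d to 0.41 for Sema7a. Of the 51, 39 lay within 0.2 of zero and 5 beyond 0.3. Of all 22180 genes, 19745 lay within 0.2 and 696 beyond 0.3. With genotype as the only term, limma with Benjamini-Hochberg adjustment called 0 of 51 members, beside 0% of all genes at an adjusted p of 0.05. At an unadjusted p of 0.05, that fit held 0 members and 0.0676% of all genes (15). With the replicate number as a block, which compares knockout with wild type within each number, limma called 0 of 51 members, beside 0.0766% of all genes (17 genes: 2 higher, 15 lower). The smallest adjusted p of a member in that fit was 0.436, for Sema5a.

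Agreement between the pairs was counted next. The pairs follow the replicate numbers, and replicate 1 minus replicate 2 had a correlation of only 0.043 between genotypes. A sign shared by all pairs thus depends on that numbering. The knockout was higher in all 3 pairs of equal replicate number for 9 members (17.6%), where 13.8% of all genes were, and lower in all 3 for 10 (19.6%), where again 13.8% of all genes were. In the block fit 9 members (17.6%, 4 higher and 5 lower) had p-values under 0.05 before adjustment, against 6.73% of all genes. Among genes above background in both genotypes the shares were 9 of 40 members (22.5%) and 8.87% of all 11770. Without replicate 1, 2 or 3 of both genotypes, 12, 10 and 4 members (23.5%, 19.6% and 7.84%) had such a p, against 8.43%, 7.10% and 5.05% of all genes. For 0 members did all knockout arrays lie outside the range of the wild type arrays, which holds for 1.41% of all genes. The 95% intervals of the block fit lay within 1 log2 unit of zero, a 2-fold difference, for all 51 members and within 0.5 for 43. Of all 22180 genes, 22129 had an interval within 1 and 20822 within 0.5. Without the block the members' SEs ran from 0.16 to 1.02, against 0.089 to 0.17 with it. An interval within 1 log2 unit then held for 23 members and for 11876 of all genes.

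**Figure D2:**
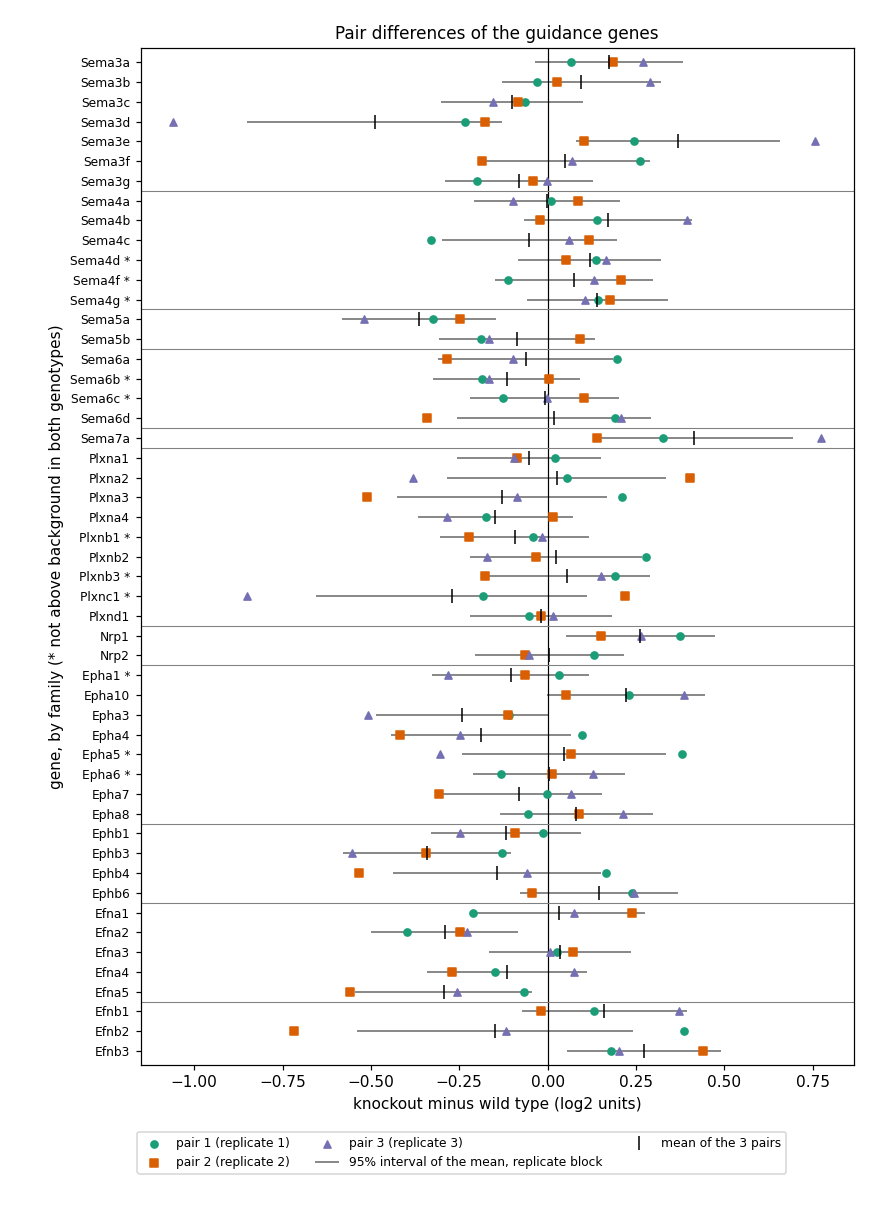
Knockout minus wild type difference (log2 units, horizontal axis) of each guidance gene (vertical axis, by family) in the pairs of replicates 1, 2 and 3, with the mean of the pairs as a tick and its 95% interval from the block fit as a bar; asterisks mark genes not above background in both genotypes. The means run from -0.49 (Sema3d) to 0.41 (Sema7a), and for 32 of 51 genes the 3 pairs differ in sign.

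The sequences just upstream of the transcription start are shown for Sema5a, Sema7a and Ephb3, the members with the smallest unadjusted p in the block fit (0.00413, 0.00861 and 0.00971), because Pax7 binds DNA. They are the 250 bases before the start, 5′ to 3′ on the plus strand, from RefSeq's GRCm38.p6 annotation: chr15:32244563-32244812 for Sema5a, chr9:57939862-57940111 for Sema7a and chr16:21204545-21204794 for Ephb3. Capitals mark GC boxes, the GGGCGG letters bound by Sp1-type factors, on either strand, with overlapping matches counted.
Sema5a: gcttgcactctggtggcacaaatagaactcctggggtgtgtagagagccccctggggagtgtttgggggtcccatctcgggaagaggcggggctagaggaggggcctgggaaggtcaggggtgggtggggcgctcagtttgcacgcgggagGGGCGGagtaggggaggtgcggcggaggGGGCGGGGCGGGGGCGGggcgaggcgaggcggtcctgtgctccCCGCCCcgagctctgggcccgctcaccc
Sema7a: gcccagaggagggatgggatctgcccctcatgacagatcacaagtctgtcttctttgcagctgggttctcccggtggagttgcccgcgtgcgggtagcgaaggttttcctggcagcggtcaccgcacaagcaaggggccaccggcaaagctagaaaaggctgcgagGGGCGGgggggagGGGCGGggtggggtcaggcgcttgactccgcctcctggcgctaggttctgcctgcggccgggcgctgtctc
Ephb3: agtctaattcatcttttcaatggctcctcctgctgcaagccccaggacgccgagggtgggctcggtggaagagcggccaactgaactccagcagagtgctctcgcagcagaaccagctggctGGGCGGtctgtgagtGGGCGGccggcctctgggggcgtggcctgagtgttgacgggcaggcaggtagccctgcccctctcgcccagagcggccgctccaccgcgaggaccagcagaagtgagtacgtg
These windows held 5, 2 and 2 GC boxes and were 72%, 66.4% and 65.6% G or C. RefSeq gave 59 promoters for 45 of the 51 members, and 45 of the 59 (76.3%) held a GC box, against 32.7% of all 32851 promoters and 42.6% of the 21263 of protein-coding genes. The TATA letters TATAAA, on either strand, were in 1 of the 59 (1.69%), that of Efnb2, against 12.4% of all promoters and 11.6% of protein-coding ones. Of letters typical of Pax proteins, the paired homeodomain motif TAATNNNATTA was in 0 of the 59 (0.463% of all promoters, 0.357% of protein-coding ones) and the paired-domain core GTCACGC in 0 (1.78% and 2.29%). These searches say only which letters lie in these windows.

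Class 3 semaphorins are the secreted members, best known as repellents of axons and blood vessels. All 7 were above background in both genotypes, their median difference was 0.048, and 2 were higher and 3 lower in all pairs. Sema3d, whose product acts on neural crest and endothelial cells, read 4.88, 4.90 and 7.20 in wild type replicates 1 to 3 and 4.65, 4.73 and 6.14 in the knockout. Only the replicate 3 array of each genotype exceeded background, so its difference of -0.49 (SE 0.16, n = 3 pairs; limma with Benjamini-Hochberg adjustment, adjusted p = 0.600) rests on a pair difference of -1.06. Sema3e, a repellent ligand of Plxnd1 that needs no neuropilin, showed the reverse order: 4.80, 4.94 and 6.21 in wild type and 5.05, 5.04 and 6.97 in the knockout. It too was above background on the replicate 3 arrays alone, where the pair differed by 0.76, and its mean difference was 0.37 (SE 0.13; limma with Benjamini-Hochberg adjustment, adjusted p = 0.639). The replicate 3 pair thus held the largest gap in either direction in this class. In wild type the signal of Plxnd1, the Sema3e receptor, was 5.93, 5.81 and 7.32, and in the knockout 5.88, 5.79 and 7.33, a difference of -0.02 (95% interval -0.22 to 0.18).

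The remaining class 3 semaphorins differed by less. Sema3a, the founding axon repellent, read 5.33, 5.27 and 5.82 in wild type and 5.39, 5.45 and 6.10 in the knockout, with pair differences of 0.07, 0.19 and 0.27. It exceeded background only on knockout array 2 and the replicate 3 array of each genotype. Sema3c, an attractant and repellent in outflow tract and axon development, read 5.62, 5.96 and 8.39 and 5.55, 5.88 and 8.23, lower in each pair by at most 0.15. Its mean difference of -0.10 (95% interval -0.30 to 0.10) is small beside the step of 2.60 in wild type and 2.52 in the knockout between replicate 3 and the others. Sema3f, which signals mainly through neuropilin 2, read 7.95, 8.02 and 8.72 in wild type and 8.21, 7.84 and 8.79 in the knockout, and its pairs differed in sign. For Sema3g the wild type values were 5.82, 5.59 and 4.29 and the knockout values 5.62, 5.55 and 4.28; it was above background in replicates 1 and 2 of both genotypes and below it in replicate 3. Sema3b, the other member, lay between 5.85 and 6.14 on the 6 arrays.

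Semaphorins of classes 4 to 7 are membrane-bound. In class 4, Sema4b and Sema4c were above background on all arrays, Sema4a in both genotype means, and the remaining 3, including the immune semaphorin Sema4d, in neither. Sema4b read 5.64, 5.47 and 6.38 in wild type and 5.78, 5.45 and 6.77 in the knockout, and Sema4c, a Plxnb2 ligand, 5.97, 5.86 and 6.25 and 5.64, 5.97 and 6.31. Their pairs differed in sign, and their 95% intervals were -0.07 to 0.41 and -0.30 to 0.20.

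Sema5a, a transmembrane semaphorin with thrombospondin repeats that can attract or repel, gave the smallest p of the set. Its signals were 5.38, 5.50 and 7.30 in wild type and 5.06, 5.25 and 6.78 in the knockout, so each knockout array was lower than its wild type partner, while the genotypes overlapped through the step of replicate 3. The pair differences of -0.32, -0.25 and -0.52 gave a mean of -0.36 (SE 0.10, 95% interval -0.58 to -0.15, n = 3 pairs), a 1.29-fold lower signal, and limma with Benjamini-Hochberg adjustment gave adjusted p = 0.436 with the block. In replicates 1 and 2 it was near background: only wild type 2 exceeded it there, by less than 0.2. Sema5b, its paralogue, read 6.96, 6.80 and 5.92 in wild type and 6.77, 6.89 and 5.75 in the knockout, with pairs of either sign.

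Class 6 semaphorins, transmembrane ligands of A-type plexins, had Sema6a and Sema6d above background in both genotype means. Each exceeded it on 3 of the 6 arrays, and in the knockout on the replicate 3 array alone. Sema6a read 4.94, 5.39 and 6.81 and 5.13, 5.10 and 6.71 in wild type and knockout, and Sema6d 5.19, 5.44 and 4.96 and 5.39, 5.10 and 5.17. Neither kept 1 sign over the pairs. Sema6a had a 95% interval of -0.31 to 0.19 and Sema6d one of -0.26 to 0.29.

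Sema7a, the single class 7 member, is anchored to the membrane by a lipid and signals through integrins and Plxnc1. It read 6.28, 6.42 and 7.57 in wild type and 6.60, 6.56 and 8.34 in the knockout, above background on every array and higher in each knockout array than in its partner. The pair differences were 0.33, 0.14 and 0.77 and their mean of 0.41 (SE 0.12, 95% interval 0.13 to 0.69) was the highest of the 51, a 1.33-fold difference. In limma with Benjamini-Hochberg adjustment, the adjusted p was 0.541 with the block. Its receptor Plxnc1 lay below background in replicates 1 and 2 and read 6.01 in wild type 3 and 5.16 in knockout 3, and its pairs of -0.18, 0.22 and -0.85 differed in sign. The integrin chain Itga1, which pairs with the beta1 chain that Sema7a engages, read 5.47, 5.82 and 7.77 and 5.39, 5.43 and 7.19, lower in each knockout, with a mean difference of -0.35 (SE 0.11; limma with Benjamini-Hochberg adjustment, adjusted p = 0.573).

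**Figure D3:**
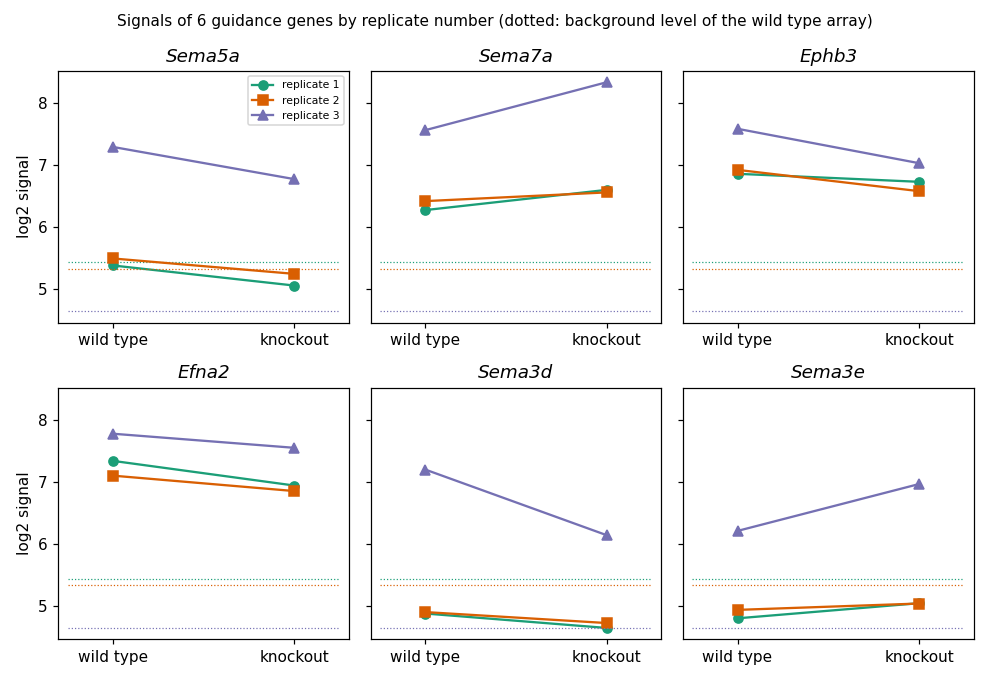
Log2 signals (vertical axis) of 6 guidance genes in wild type and knockout, with arrays of equal replicate number joined by a line and the background level of each wild type array dotted. Every line of Sema5a, Ephb3, Efna2 and Sema3d goes down and every line of Sema7a and Sema3e goes up; Sema3d and Sema3e lie below background in replicates 1 and 2.

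Plexins are the semaphorin receptors, with an intracellular domain that acts on Ras-family GTPases. Of the 9, 6 were above background in both genotypes, none was higher in all pairs and 1 (Plxnb1, not above background) was lower in all. Plxna1, a receptor partner of neuropilins, read 8.73, 9.16 and 9.98 in wild type and 8.75, 9.08 and 9.89 in the knockout. Plxnb2, the receptor of class 4 semaphorins, read 8.41, 8.78 and 9.89 and 8.69, 8.75 and 9.72. Both had intervals within 0.3 of zero, -0.26 to 0.15 for Plxna1 and -0.22 to 0.27 for Plxnb2. Of the other plexins, mean differences ran from -0.27 (Plxnc1) to 0.06 (Plxnb3).

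Neuropilins bind class 3 semaphorins and vascular endothelial growth factor. Nrp1, the co-receptor of Sema3a, read 8.51, 8.81 and 10.01 in wild type and 8.89, 8.96 and 10.27 in the knockout, which was higher in every pair. Its pairs of 0.37, 0.15 and 0.26 had a mean of 0.26 (SE 0.09, 95% interval 0.05 to 0.47), and limma with Benjamini-Hochberg adjustment gave adjusted p = 0.648. Nrp2, the co-receptor of Sema3f, read 6.09, 6.68 and 8.51 and 6.22, 6.62 and 8.46, a mean difference of 0.0051 with an interval of -0.21 to 0.22. The wide range of both genes came from replicate 3, whose arrays read above the others in both genotypes. Endothelial cells also carry neuropilins: of 12 endothelial markers 6, among them Pecam1, Tek and Cldn5, were above background on no array, and 5 (Cdh5, Egfl7, Eng, Erg and Vwf) were above it in both genotypes. The summed log2 signal of all 12 endothelial markers was 56.2 to 62.3 in wild type and 57.4 to 62.6 in the knockout.

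EphA receptors bind mainly the lipid-anchored A-type ephrins. Of the 8 described, 5 were above background in both genotypes, 1 was higher and 1 lower in all pairs. Epha3, expressed in mesenchyme and on motor axons, read 5.96, 6.02 and 7.94 in wild type and 5.85, 5.91 and 7.43 in the knockout. Each knockout array was lower than its partner, the pair differences being -0.11, -0.11 and -0.51, and the mean difference of -0.24 (SE 0.11) had an unadjusted p of 0.0504 and, in limma with Benjamini-Hochberg adjustment, adjusted p = 0.744. Epha4, which binds both ephrin types, read 6.27, 6.52 and 7.47 and 6.37, 6.10 and 7.22, with pairs of either sign. Epha10, a receptor without kinase activity, read 5.71, 5.63 and 4.57 in wild type and 5.94, 5.68 and 4.96 in the knockout, higher in each pair, with a mean of 0.22 (95% interval -0.0011 to 0.45). It was below background on the array of wild type replicate 3. Epha7 and Epha8, the other members above background, had mean differences of -0.08 and 0.08.

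EphB receptors bind the transmembrane B-type ephrins. All 4 measured were above background in both genotypes, and 2 were lower in all pairs. Ephb3 read 6.86, 6.93 and 7.59 in wild type and 6.73, 6.58 and 7.04 in the knockout, lower in each pair, with differences of -0.13, -0.34 and -0.55. Its mean difference was -0.34 (SE 0.11, 95% interval -0.58 to -0.10), with adjusted p = 0.558 in limma with Benjamini-Hochberg adjustment. Ephb1 read 5.64, 5.74 and 4.58 and 5.63, 5.64 and 4.33, with pair differences of -0.01, -0.09 and -0.25 and below background on both replicate 3 arrays. Ephb4, the partner of ephrin-B2 in arteries and veins, read 6.15, 6.47 and 7.57 in wild type and 6.31, 5.94 and 7.51 in the knockout, and its pairs differed in sign. Ephb6, a receptor without kinase activity, had a mean difference of 0.15 (95% interval -0.08 to 0.37).

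Of the A-type ephrins, 2 were lower in the knockout in all 3 pairs. Efna2 read 7.34, 7.10 and 7.78 in wild type and 6.95, 6.86 and 7.55 in the knockout, all above background. Its pairs of -0.40, -0.25 and -0.23 were close to each other and averaged -0.29 (SE 0.09; limma with Benjamini-Hochberg adjustment, adjusted p = 0.573). Efna5, a repellent in topographic maps of the visual system, read 6.07, 6.34 and 7.85 and 6.01, 5.78 and 7.60. Its mean difference was -0.29 (SE 0.11; limma with Benjamini-Hochberg adjustment, adjusted p = 0.678), with pairs of -0.07, -0.56 and -0.26. Efna3 was higher in each pair by less than 0.1, at 5.75, 5.74 and 6.25 in wild type and 5.78, 5.81 and 6.26 in the knockout. Efna1 and Efna4 had pairs of either sign, with means of 0.03 and -0.12.

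B-type ephrins signal into their own cell as well as into the partner. Efnb1, whose loss in mice and humans alters craniofacial mesenchyme, read 8.09, 8.12 and 8.30 in wild type and 8.22, 8.10 and 8.67 in the knockout. Efnb2, a marker of arteries that fibroblasts also make, read 6.21, 6.82 and 8.73 and 6.59, 6.10 and 8.62, and its pairs of 0.39, -0.72 and -0.12 were the most scattered of the ephrins. Efnb3, known from the midline of the nervous system, read 6.50, 6.40 and 4.57 in wild type and 6.68, 6.84 and 4.78 in the knockout. It was higher in each pair, by 0.18, 0.44 and 0.20, with a mean of 0.27 (SE 0.10, 95% interval 0.06 to 0.49), and limma with Benjamini-Hochberg adjustment gave adjusted p = 0.646. Replicate 3 read far below replicates 1 and 2 for this gene, and below background in wild type.

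The arrays of replicate 3 differed from the others by up to 2.60 log2 units in a guidance gene, while no mean difference between the genotypes was larger than 0.49 in size. In 15 members (29.4%) the replicate 3 array exceeded the mean of replicates 1 and 2 by over 1 log2 unit in both genotypes, against 23.0% of all genes, and in 4 (7.84%) it lay below by over 1 in both, against 8.95%. Among genes above background in both genotypes, 15 of 40 members and 4762 of all 11770 genes lay above by over 1. Below by over 1 were 4 of these members and 1387 of these genes. The shift had the same sign in both genotypes for 49 of the 51 members, as it did for 20910 of all 22180 genes. The largest upward shifts were those of Sema3c (2.60 in wild type and 2.52 in the knockout), Plxna2 (2.36 in wild type and 1.75 in the knockout), Sema3d (2.31 in wild type and 1.46 in the knockout), Efnb2 (2.22 in wild type and 2.27 in the knockout) and Nrp2 (2.13 in wild type and 2.04 in the knockout). Efnb3 (-1.88 in wild type and -1.98 in the knockout), Sema3g (-1.42 in wild type and -1.30 in the knockout), Epha8 (-1.31 in wild type and -1.11 in the knockout) and Ephb1 (-1.11 in wild type and -1.31 in the knockout) shifted down. Because the signals of replicate 3 were spread more widely in all genes, the count was repeated after quantile normalization. By over 1, 6 members (11.8%) then lay above and 4 (7.84%) below, against 9.32% and 7.86% of all genes. Among genes above background in both genotypes these were 6 and 4 of 40 members and 1580 and 1655 of all 11770 genes. After that normalization the shifts in wild type and knockout were 1.58 and 1.55 for Sema3c, 1.98 and 1.54 for Plxna2 and 1.83 and 1.37 for Sema3d. They were 0.96 and 1.05 for Efnb2 and 0.90 and 0.81 for Nrp2. Of the downward shifts, Efnb3 had -1.95 and -2.14, Sema3g -1.19 and -1.02, Epha8 -1.16 and -1.01 and Ephb1 -0.91 and -1.05. What set the replicate 3 arrays apart was not tested.

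**Figure D4:**
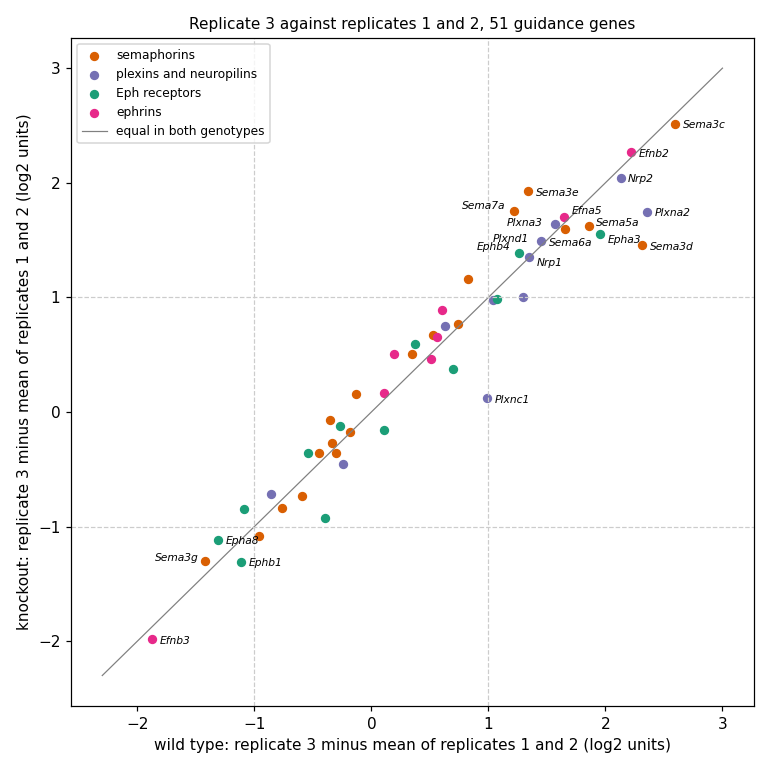
Replicate 3 minus the mean of replicates 1 and 2 (log2 units) in wild type (horizontal axis) and knockout (vertical axis), 1 point per guidance gene coloured by family, with the line of equality and dashed lines at 1 and -1. Points lie along the line from Efnb3 (-1.88 and -1.98) to Sema3c (2.60 and 2.52); 15 genes lie beyond 1 and 4 beyond -1 on both axes.

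Genes that carry these signals inside the cell, or process the ligands, were read from lists chosen by function. Of 24 semaphorin and plexin partners 22 were measured and 19 were above background; 0 passed in either direction in either fit, and the median difference was 0.020. Crmp1, a phosphoprotein that relays Sema3a signals to the cytoskeleton, read 6.77, 6.68 and 6.59 in wild type and 6.80, 6.90 and 7.64 in the knockout, where all 3 arrays were higher than any wild type array. Such separation, in either direction, held for 1.41% of all genes. Its mean difference of 0.44 (SE 0.17) owed most to replicate 3, with pairs of 0.03, 0.23 and 1.06, and limma with Benjamini-Hochberg adjustment gave adjusted p = 0.689. Furin, the protease that cleaves class 3 semaphorins, had pairs of 0.25, 0.28 and 0.09. Farp2, an exchange factor that acts with A-type plexins, had pairs of -0.26, -0.16 and -0.14, and it was above background on the replicate 3 arrays alone.

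All 21 Eph and ephrin partners were measured and 17 were above background; 0 passed in either fit, and the median difference was -0.015. Kalrn, a guanine nucleotide exchange factor, read 5.72, 5.84 and 6.25 in wild type and 5.95, 6.07 and 6.68 in the knockout, higher in each pair, with a mean of 0.30 (SE 0.09; limma with Benjamini-Hochberg adjustment, adjusted p = 0.573). Chn1, a Rac-inactivating protein downstream of Epha4, had pairs of 0.18, 0.16 and 0.51 and exceeded background on the replicate 3 arrays alone. Grb10, an adaptor, had pairs of -0.05, -0.33 and -0.19. Chn2, its pairs at -0.11, -0.37 and -0.18, was not above background in either genotype.

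Of 23 genes in the other classical guidance families, the netrins, Slits, Robos and repulsive guidance molecules, 21 were measured and 15 were above background. None passed in either fit, and the median difference was -0.0050. Slit3, a secreted Robo ligand, read 8.67, 8.73 and 9.63 in wild type and 8.33, 8.44 and 9.20 in the knockout, lower in each pair, with differences of -0.34, -0.29 and -0.43. Its mean difference was -0.35 (SE 0.09, 95% interval -0.56 to -0.15; limma with Benjamini-Hochberg adjustment, adjusted p = 0.427). Slit2 read 9.36, 9.47 and 10.24 and 9.09, 9.20 and 10.05, lower in each pair, with a mean of -0.25 (SE 0.09). Rgmb, a co-receptor for bone morphogenetic proteins and a neogenin ligand, had pairs of 0.34, 0.12 and 0.33, and Ntng2, a lipid-anchored netrin, pairs of 0.31, 0.52 and -0.06.

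Cell type markers were compared between the genotypes beside these values. The summed log2 signal of the 12 fibroblast markers was 106 to 116 in wild type and 104 to 113 in the knockout. Of the 12, 7 were lower in all pairs, where 13.8% of all genes were. Within pairs the sum was lower in the knockout each time, with differences of -2.16, -2.32 and -3.75. Lum, the matrix proteoglycan lumican, read 5.19, 5.30 and 7.08 in wild type and 4.48, 4.46 and 5.13 in the knockout, where every array was lower than any wild type array, and was above background on the replicate 3 arrays alone. Its mean difference was -1.16 (SE 0.20; limma with Benjamini-Hochberg adjustment, adjusted p = 0.127 with the block). The macrophage sum was also lower in each pair, by differences of -1.01, -0.14 and -0.86, and the endothelial sum higher in each, by 0.27, 0.22 and 1.18. The endothelial rise rested on Emcn, which was above background in neither genotype. It differed by 0.22 and 0.21 in pairs 1 and 2 and by more than the whole sum in pair 3. Of the 12 endothelial markers, 3 were higher and 3 lower in all pairs, where 13.8% of all genes were in each direction. The largest macrophage falls were those of Lyz2 and Mrc1, also above background in neither genotype, with mean differences of -0.41 and -0.31. The other marker sums differed in sign between pairs. The 12 neuronal markers summed to 59.2 to 62.7 and 60.8 to 62.7, with 7 of 12 above background in at least 1 genotype and Dcx, Elavl4, Nefl and Nefm above it on no array. Of 10 Schwann cell and neural crest markers 6 were above background, and their sum was 44.5 to 55.1 in wild type and 45.6 to 55.8 in the knockout. The macrophage markers (5 of 12 above background) summed to 59.8 to 62.7 and 59.0 to 61.6, and the epithelial ones (4 of 11) to 51.2 to 58.5 and 52.2 to 57.9. The pluripotency markers summed to 52.3 to 59.8 and 51.1 to 59.8. None of the markers passed the test in either fit. The part of these markers in the guidance gene values was not tested.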

How the data were processed

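RNA was measured on 6 arrays, 3 per genotype. The authors deposited log2 signals, 1 per probe set and array, from Partek with RMA, a method that normalizes and then combines the probes of a set, per the submitters' processing notes. Tool versions, settings and array build were not given in the sources used here. Base 2 was inferred from the span of the signals. RMA can compress differences of dim probe sets. The deposited signals did not share 1 distribution. Their interquartile ranges over genes were 3.02 and 2.98 on the replicate 3 arrays and 1.61 to 1.69 on the others. Values were used as deposited. The platform annotation gave 1 gene for 23521 of 41345 probe sets, several for 1814 and none listed for 16010; single-gene probe sets left 22180 genes, 1 probe set per gene. All 51 member symbols matched the RefSeq gene table. No coordinates of probe sets are given. For 1 gene of the Eph family, values are not reported here. The members and lists were chosen with earlier results of these data known.

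Genotypes were compared over all genes by limma's moderated test (limma 3.58.1, R 4.3.3; two-sided, Benjamini-Hochberg threshold 0.05), with genotype as the only term and, as an alternative, with the replicate number as a block. Equal-numbered arrays deviated together from their genotype's mean, with correlations of 0.920, 0.895 and 0.973 for replicates 1, 2 and 3, all above the bound of 0.1, so blocked values are given. This pairing comes from the data and rests on replicate 3: wild type 1 with knockout 2 and wild type 2 with knockout 1 also reached 0.910 and 0.898, and replicate 1 minus replicate 2 had a correlation of 0.043 between genotypes. SEs and intervals printed for genes are those of the block fit.

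Values on every array were given for members with 1 sign in all 3 pairs and above background in both genotypes (up to 10 per direction, by unadjusted block p), for the 2 members of highest mean above background in each family, and for some of the 4 genes of each partner list with the smallest block p. Background was defined from odorant receptor genes. The number of arrays limits the precision. Motifs were searched on both strands in the 250 bases before each RefSeq start. Other settings tried were quantile normalization, a batch block that sets replicate 3 apart, trended and robust variances, a filter on dim genes, the mean over probe sets, and leaving out arrays.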

Additional observations from a re-analysis of the deposited data

How the results depend on the processing

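With genotype as the only term limma called 0 genes; with the replicate block, whose SEs, intervals and adjusted p-values are printed for single genes above, it called 17, with a batch block that sets replicate 3 apart 19, and with replicates 1 and 2 only, an alternative chosen after seeing the data, 1. Leaving out arrays gave 0 to 98 genes: the 6 fits without 1 array and no block gave 0, and the block gave 98 without replicate 1, 2 without replicate 2 and 4 without replicate 3. The count of guidance members called was 0 in all 16 alternatives (smallest adjusted p 0.138, with the block and without replicate 1), and the block changed no other call. The members' median difference ranged from -0.19 to 0.068 when arrays were left out. These ends came from fits without a block that lack the replicate 3 array of the knockout or of wild type. The block fits without replicate 1, 2 or 3 gave -0.058, 0.010 and -0.016. The median was -0.051 over the 41 members kept by the filter on dim genes. The other settings moved it by less than the SD of the pair medians, 0.021. Of the 41 genes followed as named (29 members and 12 partners), none passed in any alternative (smallest adjusted p 0.110). Quantile normalization turned the difference of Sema6d to -0.0076 and of Plxnb2 to -0.00076, and replicates 1 and 2 only turned Sema6d to -0.075. A fit without a block that lacks 1 array holds replicate 3 in unequal proportion in the genotypes, and leaving out arrays turned the sign of 33 genes; their differences ranged from -0.050 to 0.35 for Sema3a, -0.94 to 0.76 for Sema3c, -0.98 to 0.28 for Sema3d, -0.27 to 0.82 for Sema3e, -0.21 to 0.29 for Sema3f, -0.56 to 0.35 for Sema3g, -0.22 to 0.45 for Sema4b, -0.22 to 0.12 for Sema4c, -0.91 to 0.25 for Sema5a, -0.41 to 0.27 for Sema5b, -0.59 to 0.49 for Sema6a, -0.10 to 0.20 for Sema6d, -0.17 to 0.82 for Sema7a, -0.38 to 0.29 for Plxna1, -0.31 to 0.45 for Plxnb2, -0.19 to 0.71 for Nrp1, -0.68 to 0.71 for Nrp2, -0.14 to 0.51 for Epha10, -0.76 to 0.41 for Epha3, -0.52 to 0.17 for Epha4, -0.49 to 0.32 for Ephb1, -0.61 to 0.28 for Ephb4, -0.12 to 0.20 for Efna3, -0.86 to 0.26 for Efna5, -0.0091 to 0.28 for Efnb1, -0.91 to 0.59 for Efnb2, -0.35 to 0.94 for Efnb3, -0.95 to 0.36 for Itga1, -0.13 to 0.59 for Furin, -0.95 to 0.55 for Farp2, -0.14 to 0.59 for Chn1, -0.26 to 0.75 for Rgmb and -0.55 to 0.030 for Slit2. These ranges pool the fits without a block and the block fits that lack a whole replicate. The block fits without replicate 1, 2 or 3 turned the sign of 5, 3 and 1 of the 41 genes. In these block fits Sema5a had -0.38, -0.42 and -0.29 and Sema3c -0.12, -0.11 and -0.07. The number of arrays, 3 per genotype, limits the precision.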

Other observations

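For 3 members a second probe set assigned to the same gene was measured and not used in the values above. The second probe set of Plxna1 was above background on all 6 arrays and differed by 0.013 between knockout and wild type, against -0.053 for the one used. That of Ephb1, above background on 1 array, differed by 0.073, against -0.12 for the one used, so the pair of probe sets disagreed in sign. That of Plxnb1 was above background on no array and differed by -0.11, against -0.094.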
